A study of Mus musculus with 12 samples.

Results

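The 6 genes described here stood far above control after knockdown of Elp3 in B16 mouse melanoma cells: Sucnr1, P2rx3, Hemk1, Tmem150a, Neurl3 and Nradd. They are 6 of the 24421 gene symbols in the deposited count table, and all 6 were found there. They were picked because they were among the largest increases on knockdown in total RNA or in ribosome-protected fragments (RPF), the short pieces of mRNA that a ribosome shields from nuclease. Their fold differences in those fractions are therefore given as a description, with no test. The study compared B16 cells transduced with lentivirus that expressed a non-relevant shRNA (shControl, labelled shCTL) with cells that carried 1 Elp3-specific shRNA (shElp3, labelled sh309). All cells were thus transduced, and the effect of Elp3 loss cannot be told apart from an effect of that single shRNA. Total RNA depleted of ribosomal RNA and RPF were each sequenced from 3 cultures per shRNA, lettered A, B and C, which makes 12 libraries, with each RPF library tied in the labels to a total RNA library.

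Elp3 is the catalytic subunit of Elongator, which starts the modification of the wobble uridine of certain tRNAs. The 6 genes belong to no single pathway. Sucnr1 is the G protein-coupled receptor for succinate, an intermediate of the citric acid cycle that cells also release. P2rx3 encodes a subunit of an ATP-gated cation channel best known from pain-sensing neurons. Nradd is a membrane protein related to the neurotrophin receptor Ngfr and carries a death domain. Tmem150a is a plasma membrane protein that works with the complex of the lipid kinase Pi4ka. Hemk1 is a methyltransferase that modifies a glutamine of mitochondrial translation release factors, and Neurl3 is a RING-type ubiquitin ligase of the Neuralized family.

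The RNA libraries held 7914369 to 16527864 counts in all, and the RPF libraries 7619269 to 10998570. Those lettered A differed from B and C. Across genes, control RNA A had a Spearman correlation of 0.899 with B and 0.891 with C, while B and C had 0.993, and in control RPF the values were 0.942 and 0.948 against 0.992. Elp3 itself, as a check of the knockdown, had a level of 70.0 to 93.9 CPM (counts scaled by library size) in control RNA and 35.3 to 41.3 in shElp3 RNA. All 10 melanocyte markers (Pmel, Tyr, Dct and others) passed the count filter, as the label of a melanoma line implies, and their summed level was 9039 to 12140 CPM in control RNA and 6082 to 7653 in shElp3 RNA, and 14855 to 34642 and then 11657 to 20610 CPM in RPF. One of them, Pmel, was called lower by edgeR in RNA (log2 difference -1.59, SE 0.26, adjusted p = 0.040) and in RPF (-1.81, SE 0.35, adjusted p = 0.036). Of 11 macrophage and leukocyte markers only Cd68 and Lyz2 passed the filter, and Ptprc had 0 counts in RNA. The summed RNA level of the 11 was 7.70 to 22.7 CPM in control and 6.31 to 12.1 in shElp3. Of 11 sensory neuron markers 4 passed (Tubb3, Prph, Pou4f1 and Runx1), Calca, Tac1 and Isl1 had 0 counts in both fractions, and the summed RNA level was 255 to 495 CPM in control and 228 to 292 in shElp3. Most of that sum was Tubb3 (log2 difference -0.59 in RNA), while Pou4f1 (0.77), Prph (0.42) and Runx1 (0.02) lay above 0. None of the 4 was called in RNA or RPF, and their part in the P2rx3 difference was not tested. Of 7 fibroblast markers Col1a1 and Pdgfra passed, Dcn had 0 counts, and the sum was 13.1 to 24.6 CPM in control RNA and 21.8 to 43.1 in shElp3 RNA, and 24.8 to 26.6 and then 35.3 to 40.4 CPM in RPF. Col1a1 was called higher in RPF (a log2 difference of 1.48, with SE 0.22 and an adjusted p of 0.020 by edgeR). When any 1 shElp3 library was left out, 0 genes were called in either fraction, so the calls of Pmel and Col1a1 ended too. The part of the fibroblast markers in the differences described below was not tested. None of the 7 epithelial markers passed, with sums of 0.447 to 1.38 CPM in control RNA and 0.238 to 0.789 in shElp3 RNA. The libraries are bulk samples, so more cells that express a gene and more RNA per cell cannot be told apart.

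The 6 genes lie on 5 chromosomes of mm10 (GRCm38). Sucnr1 is on chromosome 3 (60081869 to 60087566), P2rx3 on chromosome 2 (84996549 to 85037108), Tmem150a on chromosome 6 (72355483 to 72359762) and Neurl3 on chromosome 1 (36264602 to 36274674). Hemk1 (107327082 to 107340437) and Nradd (110621135 to 110624393) are both on chromosome 9, with other genes between them. RefSeq promoter sequences of this build were matched for 5 of the 6 genes, all but P2rx3. The 250 bases before the start of transcription are shown for the 3 genes whose RefSeq start lies at the edge of the gene and that hold a searched motif. They are written 5′ to 3′ on the strand of the gene, with the motifs found on either strand in capitals, from chr3:60081619-60081868 (plus strand), chr6:72355233-72355482 (plus strand) and chr9:110624394-110624643 (minus strand).
Sucnr1: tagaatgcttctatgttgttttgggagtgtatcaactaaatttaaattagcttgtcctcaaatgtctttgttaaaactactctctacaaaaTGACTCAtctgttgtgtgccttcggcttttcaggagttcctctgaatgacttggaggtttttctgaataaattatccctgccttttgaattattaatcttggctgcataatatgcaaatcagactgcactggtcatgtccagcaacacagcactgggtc
Tmem150a: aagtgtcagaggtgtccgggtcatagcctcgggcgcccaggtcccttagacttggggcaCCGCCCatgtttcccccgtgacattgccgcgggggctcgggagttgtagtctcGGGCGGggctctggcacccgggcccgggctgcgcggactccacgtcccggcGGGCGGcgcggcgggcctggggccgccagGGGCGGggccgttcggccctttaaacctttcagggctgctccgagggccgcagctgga
Nradd: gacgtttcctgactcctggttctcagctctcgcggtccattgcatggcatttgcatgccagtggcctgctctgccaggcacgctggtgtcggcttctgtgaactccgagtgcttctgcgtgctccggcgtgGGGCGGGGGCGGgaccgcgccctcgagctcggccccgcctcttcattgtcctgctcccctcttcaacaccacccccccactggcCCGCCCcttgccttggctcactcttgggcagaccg

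These promoters differed in base content, and beyond 7 motifs their sequences were not compared. That of Sucnr1 was 38.0% G and C with 1 CG dinucleotide, and held one TGACTCA, the AP-1 motif, at position -159 from the start. Tmem150a was 72.8% G and C with 27 CG dinucleotides and held GGGCGG, the GC box, 4 times, and Nradd was 66.4% G and C with 18 CG dinucleotides and held it 3 times. Neurl3 (50.4% G and C) held TATAAA, the TATA box, at -39, and Hemk1 (58.0%) held none of the 7 motifs searched. For both of these the RefSeq start used lies inside the annotated gene. Over 27025 mouse promoters of the same length the median was 52.0% G and C, with 6 CG dinucleotides, and 4.43% held TGACTCA, 32.9% GGGCGG and 13% TATAAA. The other motifs, which none of the 5 promoters held, were CCAAT (34.5% of all promoters), CACGTG (6.05%), CATGTG (12.2%) and TGACGTCA (1.62%). No motif was found in more than 2 of the 5 promoters. Such matches describe letters only and are not measured binding.

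Sucnr1 was low in every control library. In total RNA it had 3.88, 3.94 and 4.24 CPM in control cultures A, B and C, and 30.4, 13.1 and 30.2 CPM in the shElp3 cultures. The groups did not overlap, and shElp3 B, the lowest knockdown library, was still 3.08 times the highest control. The log2 fold difference was 2.61 (SE 0.37, n = 3 against 3), or 6.11-fold. In footprints Sucnr1 had 7.0, 12.6 and 11.6 CPM in control and 46.2, 39.9 and 72.9 CPM in shElp3, a log2 fold difference of 2.34 (SE 0.30). Culture B again showed the smallest step: within letters A, B and C the folds were 7.83, 3.32 and 7.12 in RNA and 6.60, 3.16 and 6.30 in footprints.

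P2rx3, the ATP-gated channel subunit, had the largest RNA difference of the 6 genes. Its RNA level was 2.68, 4.58 and 7.93 CPM in control cultures A, B and C and 24.7, 36.7 and 50.3 CPM in shElp3. Culture A was the lowest and C the highest of each group, and the lowest shElp3 library was 3.11 times the highest control. The log2 fold difference was 2.88 (SE 0.46), or 7.37-fold. In footprints it had 4.2, 2.09 and 2.0 CPM in control and 17.2, 16.1 and 18.3 CPM in shElp3 (log2 fold difference 2.67, SE 0.31). The control values rest on 30, 21 and 22 reads. The shElp3 footprint libraries were close together (SD 1.14 CPM around a mean of 17.2) although their RNA levels were not (SD 12.8 around 37.2).

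Nradd, the death domain protein related to Ngfr, differed more evenly in footprints than in RNA. Its footprints were 6.86, 6.46 and 8.56 CPM in control and 30.1, 30 and 21.6 CPM in shElp3, with no overlap (log2 fold difference 1.89, SE 0.21, or 3.72-fold). Its RNA was 14.2, 5.04 and 9.04 CPM in control and 37.9, 27.2 and 21.5 CPM in shElp3 (1.61, SE 0.41). Letter A was the highest library of each RNA group. The RNA groups did not overlap, but shElp3 C was only 1.51 times control A.

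Tmem150a, the partner of the Pi4ka complex, had nearly the same RNA level in every knockdown culture. Its RNA was 8.28, 7.33 and 9.77 CPM in control and 27.5, 26.4 and 27.4 CPM in shElp3 (log2 fold difference 1.68, SE 0.22, or 3.20-fold). Its footprints were 11.6, 7.95 and 11.7 CPM in control and 27.5, 25 and 24.1 CPM in shElp3 (1.30, SE 0.20). The groups were separate in both fractions. The annotated end of Tmem150a overlaps that of Rnf181 on the other strand, and the strand setting of the counting is not given in the sources used here. Rnf181 had 183 ± 115 CPM of RNA in control cultures and 138 ± 30.5 in knockdown cultures (SD, n = 3), with control A at 315 CPM and the other 5 cultures between 106 and 167. In footprints it had 160 ± 45.8 and 167 ± 38.0 CPM. The part of reads from the overlap in the Tmem150a values was not tested.

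Hemk1, the release factor methyltransferase, had nearly the same RNA level in every control culture, with 5.37, 5.59 and 5.62 CPM. In shElp3 it had 20.6, 14.7 and 15.6 CPM, a log2 fold difference of 1.62 (SE 0.25). In footprints it had 3.64, 2.29 and 3.19 CPM in control, from 23 to 35 reads, and 12.3, 12.3 and 11.4 CPM in shElp3 (1.98, SE 0.24, or 3.96-fold). Hemk1 and Nradd had a larger difference in footprints than in RNA, and the other genes a smaller one.

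Neurl3, the Neuralized-family ligase, had the smallest differences. Its RNA was 16.3, 16.3 and 18.8 CPM in control and 39.1, 41.7 and 59.7 CPM in shElp3 (log2 fold difference 1.45, SE 0.25, or 2.73-fold). Its footprints were 15.1, 8.25 and 11.0 CPM in control and 31.0, 16.2 and 30.9 CPM in shElp3 (1.19, SE 0.32). There the groups nearly touched, since shElp3 B was only 1.07 times control A.

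**Figure D1:**
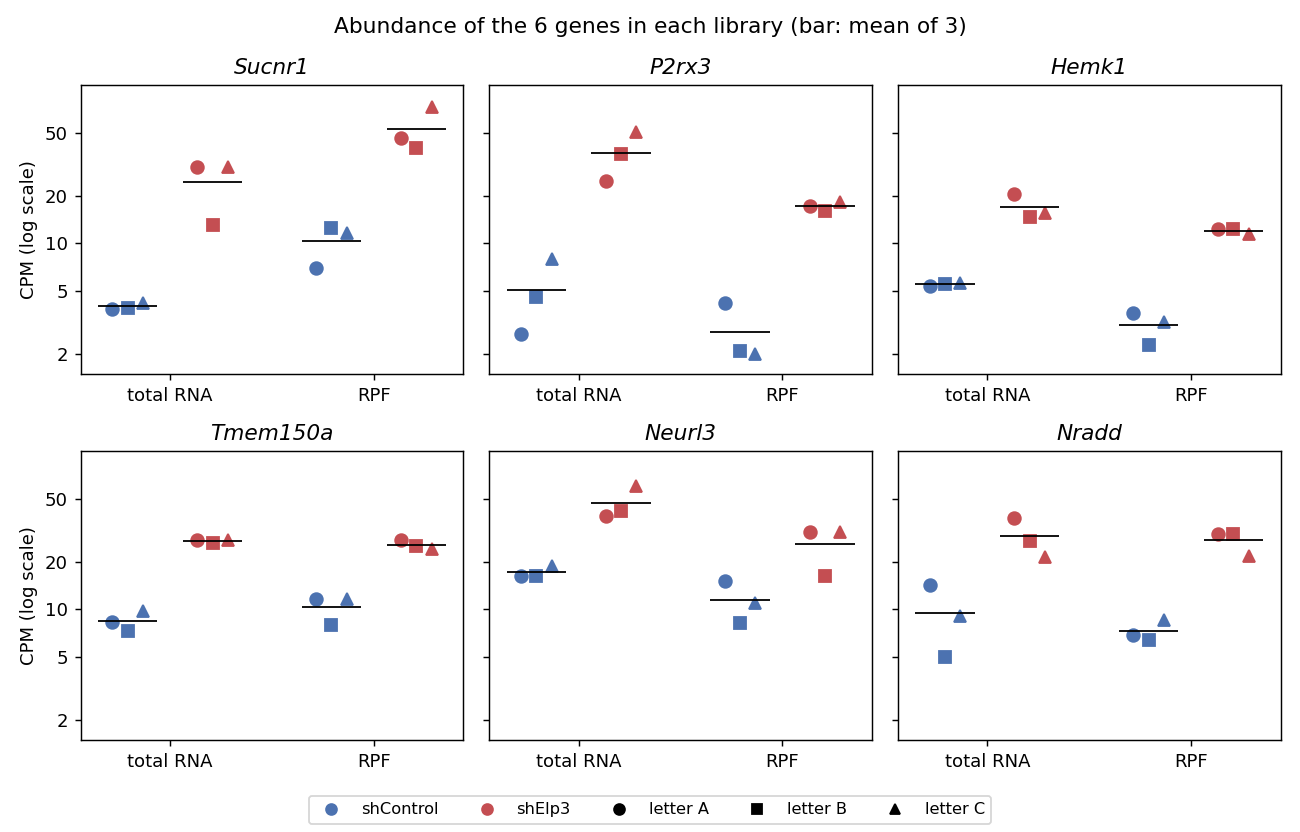
CPM on a log scale (vertical axis) of the 6 genes in the 12 libraries, by fraction and shRNA, with the letter of the culture as the symbol and the mean of 3 as a bar. Every shElp3 library lies above every shControl library of its fraction, by the widest margin for P2rx3 footprints (3.82 times) and the narrowest for Neurl3 footprints (1.07 times).

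All 6 genes were thus higher in every shElp3 library than in any control library, in RNA and in footprints. Among all tested genes 10.2% showed this in RNA and 15.4% in footprints, but the genes were picked on these contrasts, so nothing follows from the comparison. They were not simply the top of the ranking. Among the 9670 genes whose mean log2 CPM was 3 or more in RNA, P2rx3 had rank 2 by log2 fold difference, after Otog (3.55) and before C4b (2.81). Sucnr1 had rank 4, before Mmp28 (2.47). Tmem150a (rank 18), Hemk1 (20) and Nradd (21) followed close together, and Neurl3 had rank 28, between Scarna2 (1.48) and Igdcc4 (1.44). In footprints P2rx3 had rank 7, Sucnr1 11, Nradd 17, Tmem150a 57 and Neurl3 73 of 9045, where the next gene, Abca1, had 1.19 as Neurl3 did. Hemk1 fell just under that level in footprints, with a mean log2 CPM of 2.95.

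Since the groups of the 6 genes did not overlap, every difference within a letter had to lie above 0. Only the sizes of these differences are described, and in footprints the letters were not taken to pair samples. Within A, B and C the log2 fold difference ranged from 1.25 (Nradd in C) to 3.20 (P2rx3 in A) in RNA, and from 0.97 (Neurl3 in B) to 3.19 (P2rx3 in C) in footprints. The letters did not rank the genes alike. Letter B gave the smallest RNA fold of Sucnr1 (3.32) and the largest of Nradd (5.40, against 2.66 in A and 2.37 in C). Letter A gave the largest RNA fold of P2rx3 (9.19) but its smallest footprint fold (4.09, against 7.70 in B and 9.15 in C). Since letter A stood apart, the values were also taken from letters B and C only. In RNA they were then 2.42 for Sucnr1, 2.80 for P2rx3, 1.44 for Hemk1, 1.65 for Tmem150a, 1.54 for Neurl3 and 1.78 for Nradd on the log2 scale. In footprints they were 2.22, 3.06, 2.1, 1.32, 1.28 and 1.77 in the same order.

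**Figure D2:**
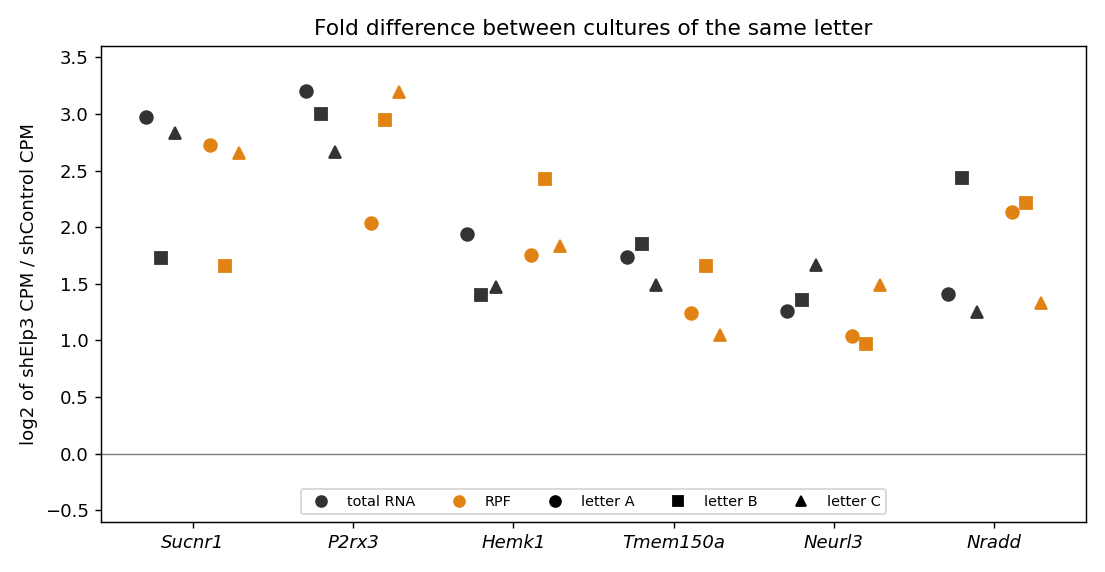
Log2 of the shElp3 over the shControl CPM (vertical axis) for each gene in total RNA and RPF. A point sets 1 shElp3 library against the shControl library of the same letter. In RPF the letters were not taken to pair samples. All 36 points lie above 0, as they must where groups do not overlap, from 0.97 (Neurl3 footprints, letter B) to 3.20 (P2rx3 RNA, letter A).

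Footprints relative to RNA, the measure usually called translational efficiency (TE), were set out by culture. The ratio compares footprint CPM with RNA CPM of 1 gene and is relative to the other genes of the library. Sucnr1 had the highest ratio of the 6. Its RPF over RNA ratio was 1.81, 3.20 and 2.73 in control A, B and C and 1.52, 3.05 and 2.41 in shElp3. The mean log2 ratio in control, 1.33 ± 0.43 (SD, n = 3), lay above that of 97.2% of the 11238 genes past the filter in both fractions. Letter A was lowest in both groups, and the groups overlapped.

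P2rx3 had ratios of 1.57, 0.455 and 0.253 in control and 0.697, 0.438 and 0.364 in shElp3. Control A thus stood well above the other control cultures, on 30 footprint reads. For Nradd letter A was instead the lowest of each group, with 0.482 in control A against 1.28 and 0.948 in B and C, and 0.794 in shElp3 A against 1.10 and 1.00. Hemk1 ranged from 0.409 to 0.678 in control and 0.596 to 0.832 in shElp3, and Neurl3 from 0.506 to 0.926 and 0.388 to 0.792.

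Tmem150a was the only one of the 6 genes whose ratios did not overlap between the groups. For the other genes named in this report the overlap of ratios was not examined. The Tmem150a ratios were 1.40, 1.08 and 1.19 in control and 0.998, 0.949 and 0.882 in shElp3. The share of all genes with separate ratios was not counted, so nothing follows from the separation for Tmem150a. The difference in log2 TE, from a model over the 12 libraries, was -0.43 (SE 0.29). For the others it was -0.31 (SE 0.48) for Sucnr1, -0.27 (SE 0.58) for P2rx3, 0.31 (SE 0.33) for Hemk1, -0.31 (SE 0.42) for Neurl3 and 0.24 (SE 0.48) for Nradd. Each is smaller in size than the RNA and footprint differences of the same gene. These values derive from the contrasts that picked the genes and carry no test. The sign of the P2rx3 value turned to 0.24 and that of Nradd to -0.03 with letters B and C only. Across all genes edgeR called 0 of 11238 in TE, with 62 at an unadjusted p under 0.05, and DESeq2 called 0.

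**Figure D3:**
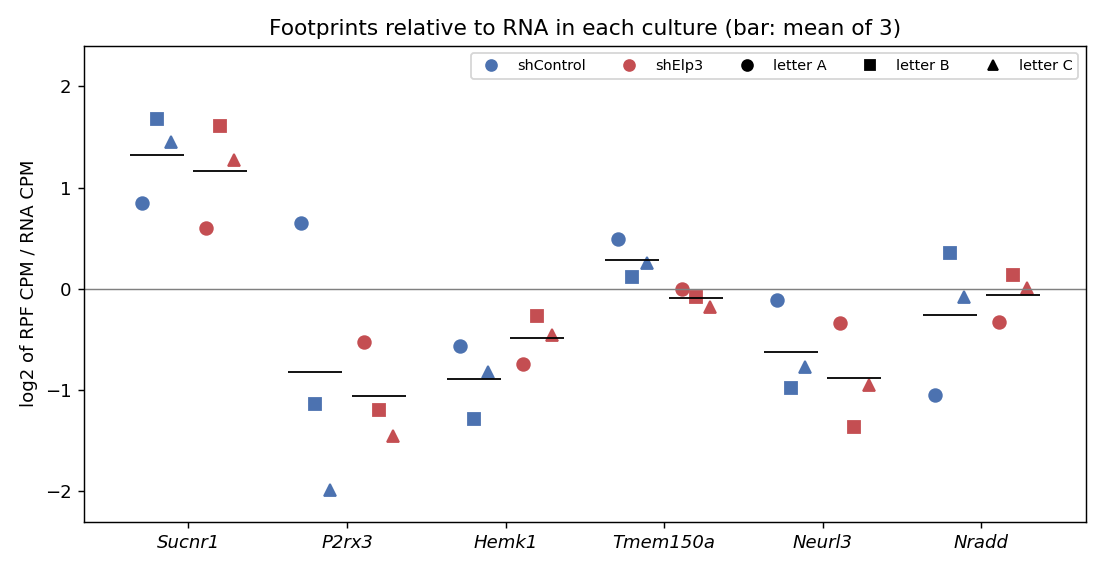
Log2 of the RPF over the RNA CPM (vertical axis) in each of the 6 cultures, for each gene, with the mean of 3 as a bar. Sucnr1 lies above 0 in all 6 cultures, the Tmem150a groups are separate, and P2rx3 in control A (0.65) stands apart from control B (-1.13) and C (-1.98).

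Over the 12 libraries the 6 genes followed each other. After the mean of each fraction was subtracted, Pearson r of log2 CPM between pairs ranged from 0.778 (Neurl3 and Nradd) to 0.963 (Hemk1 and Tmem150a). The points share the step between shControl and shElp3 on which the genes were picked, and letters across the fractions, so these values are a description. The 3 genes most like Sucnr1 among 10857 were the lactonase Pon3 (r = 0.991), Dolk (0.975) and the transporter Abca8b (0.972). Pon3 had a log2 fold difference of only 0.93 in RNA, so likeness of pattern did not need a like size. For P2rx3 they were the kinase Snrk (0.976), the cholesterol exporter Abca1 (0.974) and Blcap (0.970). For Tmem150a they were the complement gene C4b (0.988), Ptk7 (0.987) and Prkcd (0.985). Hemk1 was closest to Dgkq (0.979), Nradd to Cnbd2 (0.983), and Neurl3 to Paqr3 (0.966). Genes with r above 0.9 numbered 70 for Neurl3 to 155 for Tmem150a, while the median r over all genes lay between -0.01 and 0.01 for each.

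Genes of the pathways of the 6 were then examined, in 6 lists that hold none of the 6 themselves. These genes were tested with edgeR (quasi-likelihood, adjusted over all genes). Over the lists together 0 of 71 tested genes were called in RNA, 1 of 66 in footprints and 0 of 66 in TE. Over all genes 1.14% were called in RNA (0.22% higher and 0.921% lower), 4.83% in footprints (1.77% higher and 3.06% lower) and 0% in TE. At an unadjusted p under 0.05 there were 10, 8 and 1 list genes, where all genes gave 12.4%, 23.1% and 0.552%. DESeq2 called 5 in RNA (5.31% of all genes), 2 in footprints (11.5%) and 0 in TE (0%). With the replicate letter as a block, 11 of the 71 were called in RNA, 9 higher and 2 lower, where 12.2% of all genes were called and 5.46% were called higher. In that fit the footprints again had 1 call (5.87% of all genes) and TE 0.

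The purinergic list, the receptors, enzymes and release channels of extracellular nucleotides, held 5 of the 9 genes called higher in the blocked RNA fit. Without the block 0 of its 16 tested genes were called in RNA, 13 of 16 values lay above 0 (48.1% over all genes), and the median was 0.39 (-0.02 over all genes). The ATP-gated channel P2rx7, a subunit of the same family as P2rx3, had 34.2, 33.5 and 33.7 CPM in control RNA and 61.1, 47.2 and 61.3 in shElp3. Its log2 fold change was 0.74 (SE 0.21), not called without the block (edgeR adjusted p = 0.19) but called with it (0.016) and by DESeq2 (0.024), over a range of 0.0078 to 0.59 across the alternatives. The nucleotide receptor P2ry2 had 6.64, 6.51 and 8.02 CPM in control RNA and 11.5, 16.0 and 13.6 in shElp3 (0.96, SE 0.25). The others called with the block were P2rx1 (4.84 ± 1.23 and 8.88 ± 1.76 CPM, SD, n = 3) and, at very low levels, the nucleotide receptor P2ry6 (0.511 ± 0.14 and 2.26 ± 0.928) and P2rx6 (0.272 ± 0.152 and 1.33 ± 0.461). These 5 were named after their values were seen. P2ry6 had at most 0.645 CPM and P2rx6 at most 0.447 CPM in control RNA, and both passed the count filter only through shElp3 libraries. For these 2 genes the filter thus favoured a higher value in shElp3. Both are kept in the counts of calls, the values above 0 and the median of the list. P2rx4, another subunit of that channel family, had 117 ± 19.8 and 119 ± 11.5 CPM (0.03, SE 0.22).

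In footprints 7 of 13 purinergic genes lay above 0 (49.1% over all genes) and the median was 0.11 (-0.01 over all genes). P2rx7 there had 82.8, 57.1 and 60.5 CPM in control and 83.1, 77.5 and 92.0 in shElp3, and P2ry2 5.19 ± 2.21 and 5.08 ± 1.15 (SD, n = 3). The one gene called in the fit of all letters was Entpd6, an enzyme that hydrolyses nucleoside diphosphates. It fell from 53.1, 40.4 and 44.2 CPM to 26.9, 25.4 and 30.9, or by 0.73 on the log2 scale (SE 0.16, adjusted p = 0.046 by edgeR). Its RNA had 51.3 ± 11.5 and 46.2 ± 6.64 CPM (-0.15, SE 0.24). The footprint call ended without shControl B or C, or without any 1 of the shElp3 libraries, with adjusted p of up to 0.22. Of related enzymes, Entpd5 had log2 fold changes of 0.13 in RNA and -0.28 in footprints, and Entpd2 0.01 and 0.11. P2rx2, the usual channel partner of P2rx3 in neurons, had 3 RNA counts and 0 footprint counts in all. With letters B and C only, edgeR called P2rx7 (0.53) and the release channel Panx1 (0.81) higher in footprints, and Entpd6 (-0.59) lower. That fit called 1076 of 11440 genes higher and 1401 lower. The first 2 were named after their values were seen.

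The succinate list, with the enzymes that make and use succinate, its carriers and the G proteins of the receptor, had no call in RNA, footprints or TE, with or without the block. With letters B and C only, the mitochondrial dicarboxylate carrier Slc25a10 (-0.97 in RNA and -0.96 in footprints) and Suclg2, a subunit of succinyl-CoA ligase (-0.43 and -0.36), were called lower by edgeR in both fractions. Both were named after their values were seen. Over all genes that fit called 1287 of 12281 lower in RNA and 1401 of 11440 lower in footprints. Over the 6 lists it called 8 higher and 4 lower of 70 genes in RNA. In footprints it called 6 higher and 4 lower of 68. In the fit of all letters, 4 of the 20 tested succinate genes lay above 0 in RNA and 4 in footprints. The shares over all genes were 48.1% and 49.1%. The medians of the list were -0.28 and -0.14. Sdha, the catalytic subunit of succinate dehydrogenase, had 290 ± 42.4 CPM in control RNA and 279 ± 8.46 in shElp3 RNA (-0.05, SE 0.22). Sdhb had -0.45 (SE 0.47), and Ogdh, a subunit of the enzyme that makes succinyl-CoA, had 0.23 (SE 0.29). Gnai2, an inhibitory G protein subunit, had 567 ± 14.3 and 451 ± 80.2 CPM (-0.33, SE 0.24).

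The Neuralized list held the ligases of that family and the Mindbomb ligases. In RNA 4 of 5 values lay above 0 (48.1% over all genes), with a median of 0.28. With the block 2 were called higher in RNA, where 5.46% of all genes were, and these 2 are described for that call. Neurl4 had 21.5, 36.6 and 48.4 CPM in control and 59.2, 51.1 and 67.4 in shElp3, with no overlap. Neurl1a had 7.01, 4.4 and 8.39 and then 12.4, 14.6 and 10.7, also with no overlap. Of all genes 10.2% had every shElp3 RNA library above every control. Neither was called without the block (log2 fold changes of 0.74 and 0.93, edgeR adjusted p = 0.41 and 0.26). Mib1 (-0.07, SE 0.34) and Mib2 (0.28, SE 0.21) were called neither with nor without the block.

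The neurotrophin list held the receptors, ligands and adaptors around the family of Nradd. In RNA 10 of 13 values lay above 0 (48.1% over all genes), with a median of 0.18. With the block Ngfr and the sortilin-related receptor Sorcs2 were called higher in RNA, where 5.46% of all genes were. Without the block edgeR called neither (adjusted p = 0.28 and 0.15), while DESeq2 called Sorcs2 (adjusted p = 0.030). Ngfr had 26.5, 32.4 and 33.0 CPM in control and 37.5, 55.6 and 56.8 in shElp3 (0.70, SE 0.25), and Sorcs2 1.64, 2.29 and 2.67 and then 4.50, 5.11 and 5.44 (1.19, SE 0.31). In footprints Ngfr had 23.3 ± 6.41 and 30.5 ± 4.55 CPM (SD, n = 3). There 7 of 11 values of the list lay above 0 (49.1% over all genes), with a median of 0.03. The highest was that of the ligand Bdnf, at 1.47 (SE 0.50, edgeR adjusted p = 0.13), named after its values were seen. It had 0.59 ± 0.264 and 1.67 ± 0.636 CPM. Of the other members, Sort1 (0.06), Maged1 (-0.28), Ngfrap1 (-0.29) and Irak1 (-0.32) had small RNA differences.

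The list of the Pi4ka complex also held relatives of Tmem150a. In RNA 6 of 9 values lay above 0 (48.1% over all genes), with a median of 0.07. With the block 1 gene, Fam126b, was called lower in RNA (122, 73.2 and 45.5 CPM in control, 57.0, 34.9 and 43.2 in shElp3), with shControl C below shElp3 A. Of all genes 829 of 12274 were called lower in that fit. Without the block Fam126b was not called (log2 fold change -0.83, edgeR adjusted p = 0.45). Pi4ka itself had 194 ± 59.2 and 204 ± 48.3 CPM (0.07, SE 0.32), and Efr3a, its membrane anchor, 167 ± 13.6 and 173 ± 12.8 (0.06, SE 0.20). Ttc7b had -0.17 and Fam126a -0.20. The relatives Tmem150b and Tmem150c had 1 and 9 RNA counts in all.

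The release factor list had 3 of 8 values above 0 in RNA (48.1% over all genes) and a median of -0.11. With the block Etf1, the cytosolic release factor that reads stop codons, was called lower in RNA, from 451, 263 and 231 CPM to 245, 158 and 161. Control C lay below shElp3 A. Without the block it was not called (log2 fold change -0.75, edgeR adjusted p = 0.43). With the block 829 of 12274 genes in all were called lower. In footprints Etf1 had 279, 239 and 236 CPM in control and 163, 192 and 191 in shElp3 (-0.47, SE 0.13). DESeq2 called it lower there (adjusted p = 0.033, with 11.5% of all genes called), and edgeR did not (adjusted p = 0.093). Mtrf1l, a mitochondrial release factor of the kind Hemk1 modifies, had 6.65 ± 1.31 and 6.65 ± 1.22 CPM (0.01, SE 0.29). Of the other members, Gspt1 had -0.14, Trmt112 0.02 and Ict1 0.09 in RNA.

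**Figure D4:**
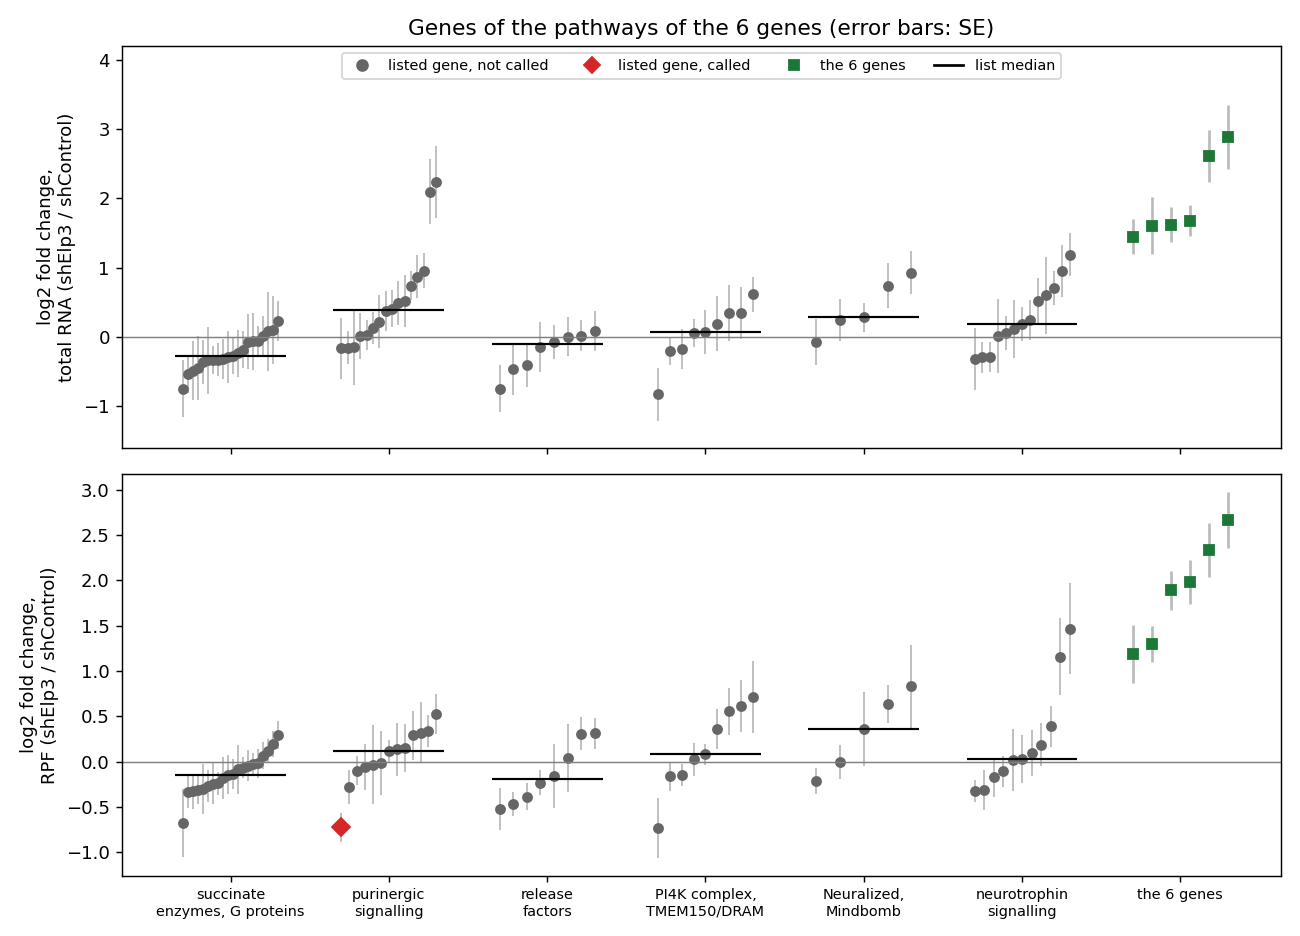
Log2 fold change (vertical axis, with SE) in total RNA and RPF for every tested gene of the 6 pathway lists, in order within each list, with the list median as a line and the 6 genes at the right as squares. The one called gene, Entpd6 in RPF (-0.73), is a diamond. P2ry6 (2.1) and P2rx6 (2.24) reach the range of the 6 genes in RNA, both at mean levels below 3 CPM. Both passed the count filter only through shElp3 libraries, which favours a higher value. In RPF Bdnf of the neurotrophin list (1.47, not called) lies in the range of the 6 genes. Its mean RPF levels were 0.59 CPM in shControl and 1.67 in shElp3.

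Lastly the genes beside each of the 6 on the chromosome were examined, the 3 nearest protein-coding genes on each side, which makes 36. Of these 27 were tested in RNA with 0 called, where 1.14% of all genes were called. In footprints 25 were tested with 1 called higher, where 1.77% of all genes were called higher and 4.83% in either direction. The medians were 0.08 in RNA and 0.07 in footprints. Ssrp1, a chromatin factor whose annotated start lies 0.012 kb beyond the end of the P2rx3 interval, had 192 ± 48.3 CPM in control RNA and 189 ± 23.4 in shElp3 RNA (SD, n = 3; -0.02, SE 0.26). On its other side P2rx3 overlaps Prg3, which had 0 counts in all 12 libraries. Both genes nearest Hemk1 were low: Cish had 0.17 (SE 0.65) and 6430571L13Rik, which starts 0.203 kb away on the opposite strand, 0.10 (SE 0.33). Nearest to Tmem150a, 0610030E20Rik had -0.09 (SE 0.44) and Rnf181 -0.41 (SE 0.44). Nearest to Neurl3, Uggt1 had 0.35 (SE 0.22) and Arid5a 0.18 (SE 0.24). The nearest tested neighbour of Sucnr1 was Mbnl1, 385 kb away (-0.27, SE 0.22), and Aadac and Aadacl2 on its other side had 1 RNA count each in all.

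The one called neighbour lay near Nradd. The nearest genes of Nradd, Setd2 (-0.24, SE 0.43) and Nbeal2 (0.50, SE 0.45), were not called in RNA. Kif9, a kinesin gene 96.0 kb away, had 2.94, 3.28 and 3.10 CPM in control footprints and 11.2, 9.48 and 9.01 in shElp3. It rose by 1.66 on the log2 scale (SE 0.22, edgeR adjusted p = 0.016). Its RNA was 3.79 ± 0.398 CPM in control and 6.64 ± 1.16 in shElp3 (0.81, SE 0.27, adjusted p = 0.27). The footprint call ended without shControl B or C, or without any 1 of the shElp3 libraries, with adjusted p of up to 0.12. Pth1r, the parathyroid hormone receptor gene 97.7 kb on the other side, had 11.8, 5.68 and 8.11 CPM in control RNA and 21.8, 14.1 and 14.1 in shElp3. It was called higher in RNA with the block and not without it (0.97, SE 0.35, adjusted p = 0.30).

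**Figure D5:**
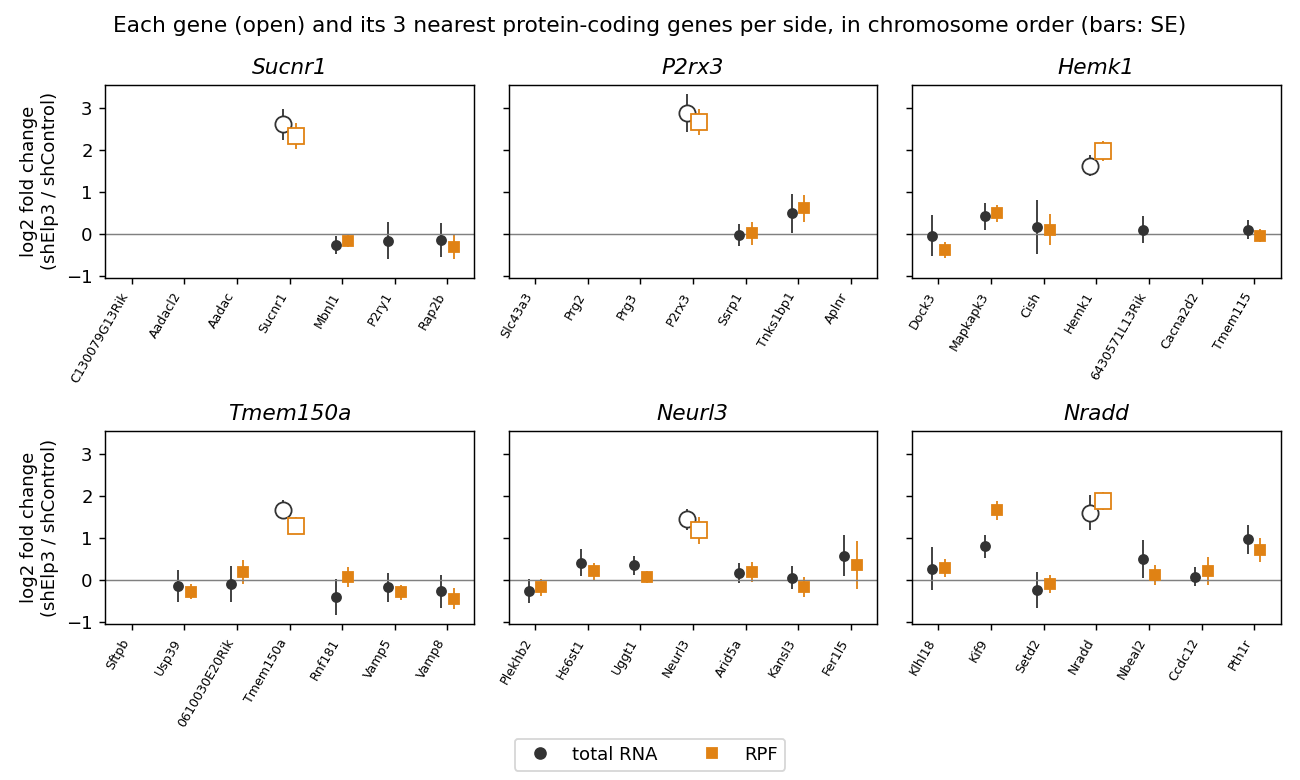
Log2 fold change (vertical axis, with SE) in total RNA and RPF of each of the 6 genes (open symbols) and of its 3 nearest protein-coding genes on each side in chromosome order, with genes that did not pass the count filter left blank. Kif9 beside Nradd (1.66 in RPF) is the one called neighbour, and Ssrp1 beside P2rx3 lies at -0.02 in RNA and 0.01 in RPF.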

How the data were processed

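B16 total RNA and RPF libraries came from Illumina's mammalian TruSeq ribosome profiling kit, per the labels' protocols. The authors deposited a table of raw counts, whole numbers per gene symbol, with 1 column for each of the 12 libraries. The submitters' processing notes name TopHat2 2.1.1, Bowtie, HTSeq and bcl2fastq, and the build mm10. The annotation, the strand setting and the feature counted were not given in the sources used here.

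Genes passed filterByExpr (minimum count 10) in their own fraction, and in both fractions for TE. TMM factors were computed per fraction for the RNA and RPF fits, and CPM use the resulting library sizes. For the TE model they were computed over the 12 libraries together. The ratios by culture and the modelled TE differences thus rest on different factors. The shElp3 effect was tested over the whole table with edgeR 4.0.16 (glmQLFit, glmQLFTest, R 4.3.3), with Benjamini-Hochberg adjustment and a threshold of 0.05. A gene that passed it is said to be called. TE was the interaction of fraction and shRNA over the 12 libraries. The SE is the log2 fold change divided by the root of F. Correlations used log2 CPM with a prior count of 2. The labels do not say whether the cultures were transduced separately, and the p-values reflect only the spread among them, which may be technical.

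The 6 genes, the gene lists and the tests were chosen with earlier results of these data known. Every pathway gene or neighbour called with or without the block is named, with up to 4 listed genes of highest RNA level per list, the nearest tested neighbours and up to 3 genes most like a member. Coordinates, neighbours and promoters are from RefSeq (GRCm38.p6). No pair of libraries of a group was alike within sampling noise (chi-square per degree of freedom of 8.25 or more). The functions that fit the models were tested on simulated data.

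Letters were taken to pair samples where same-letter deviations from the group means correlated across the shRNAs. In RNA r was 0.807, 0.423 and 0.582 for A, B and C. In TE, where the labels give the RNA library that goes with each RPF library, it was 0.769, 0.466 and 0.492. Letters B and C also correlated with each other across the shRNAs, in RNA (0.688 and 0.579) and in TE (0.519 and 0.587). The check thus sets A apart but cannot tell whether B pairs with B or with C. The block in RNA takes the letters as labelled. In RPF r was 0.328, -0.107 and 0.215, so letters were not taken to pair those samples. Alternatives were DESeq2 1.42.0, RLE size factors, other count filters, the block, letters B and C only, leaving out each library and leaving out the 20 most abundant genes.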

Additional observations from a re-analysis of the deposited data

Results flagged for a closer look

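Efr3a, a membrane anchor of the Pi4ka complex, had differences of opposite sign in RNA and in footprints in every letter, none of them large. Within A, B and C its log2 fold difference was 0.05, 0.03 and 0.08 in RNA and -0.29, -0.13 and -0.03 in footprints, and the mean in footprints less that in RNA was -0.21. In the edgeR test of the interaction of fraction and shRNA its difference in log2 TE was -0.26, and it was not called in RNA, in footprints or in TE. Same-letter footprint libraries were not treated as pairs, so the letters add no support here.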

How the results depend on the processing

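For the 6 genes, 13 alternatives each moved the log2 fold differences by less than 1 SD of the replicates in RNA (78 of 78 values) and in footprints (78 of 78). Of the 78 TE differences 5 turned sign. With letters B and C only P2rx3 turned to 0.244 and Nradd to -0.027, and Hemk1 moved to 0.643. Leaving out 1 library gave Sucnr1 -0.493 to 0.008 (positive without shElp3 A), P2rx3 -0.952 to 0.459 and Nradd -0.218 to 0.462 (both turned without shControl A).

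Counts of called genes depended strongly on the fit. In RNA, of all genes, 140 were called, against 652 with DESeq2, 1499 with the replicate block and 2377 with letters B and C only. In footprints the 548 became 1308 with DESeq2 and 2477 with letters B and C only, and were 666 with the block. Without any filter on low counts 203 were called in RNA and 764 in footprints. In TE, 2 were called with letters B and C only. Of the pathway genes, 0 of 71 called in RNA became 5 with DESeq2, 11 with the block and 12 of 70 with letters B and C only. In footprints 1 of 66 became 2 with DESeq2 and 10 of 68 with letters B and C only. With those letters 2377 of 12281 genes in all were called in RNA and 2477 of 11440 in footprints. Of the neighbours, 0 of 27 in RNA became 1 with the block and 3 of 26 with letters B and C only, and 1 of 25 in footprints became 4 of 27 with the latter.

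Leaving out 1 library gave 0 to 540 called genes in RNA and 0 to 2856 in footprints. It gave 0 to 2 pathway genes in RNA and 0 to 11 in footprints, and 0 to 6 neighbours in footprints. The highest value was always that without shControl A. In that fit 2 of 72 pathway genes were called in RNA, where 540 of 12404 genes in all were. In footprints 11 of 68 pathway genes and 6 of 27 neighbours were called, where 2856 of 11530 genes in all were. The 0 in RNA was that without any other single library. Footprints gave 52 genes when shControl B was left out, 59 when shControl C was, and 0 when any 1 shElp3 library was. Among the pathway genes and neighbours the block changed no call in footprints or TE. The cause of these changes was not tested. Depth limits the control footprint values of P2rx3 and Hemk1 most, since these rest on 21 to 35 reads.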
